A study of Homo sapiens with 27 samples.

Results

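Integrins are the cell surface receptors, each a pair of one alpha and one beta subunit, that hold cells to their matrix, and laminins are the three-chained proteins (alpha, beta, gamma) of the basement membrane that several of them bind. The genes described here are all symbols of the 2 families in the count tables of 3 prostate cancer cell lines, taken by name (ITGA, ITGB and LAMA, LAMB, LAMC followed by a subunit number or letter). They were 38 genes, 26 for integrins and 12 for laminins, of 27546 symbols in all, and 34 of them were listed for all 3 lines. RNA was sequenced in 27 bulk libraries of 22Rv1, DU145 and PC3 cells carrying CRISPR guide RNAs. Each line had 3 libraries of control gRNA #1 cells, and 3 of each of 2 populations given a guide against RIPK2, the kinase that relays signals from the NOD receptors. The RIPK2 guides were gRNA 1 and gRNA 10 in 22Rv1, and gRNA 2 and gRNA 10 in DU145 and PC3. The labels name no treatment or time, and whether a population was 1 clone or a pool is not given in the sources used here. Nothing says that replicates came from separate cultures, so p-values measure only the spread between these libraries.

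In the normal prostate, basal cells rest on a basement membrane laminin that holds the chains made by LAMA3 and LAMB3, called the epithelial laminin here. They bind it through integrin alpha 6 beta 4, which anchors the hemidesmosome to keratin filaments, and through integrin alpha 3 beta 1, which connects to actin at focal adhesions. Laminins with the LAMA5 chain are found under most epithelia, and the beta 1 subunit is shared by the largest group of alpha subunits, among them the collagen and fibronectin receptors.

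Library totals ran from 17958558 to 20650819 counts. RIPK2 itself stood at 15.8 to 18.2 CPM (library-size-normalised counts, scaled by TMM within the line) in 22Rv1 control libraries, at 8.32 to 9.42 with gRNA 1 and at 5.20 to 5.58 with gRNA 10. In DU145 it stood at 39.4 to 44.4, 9.87 to 13.3 with gRNA 2 and 33.4 to 36.4 with gRNA 10, and in PC3 at 59.3 to 62.4, 20.1 to 21.7 and 25.5 to 28.3. The RIPK2 transcript fell with 5 of the 6 guide populations by edgeR's quasi-likelihood test. With DU145 gRNA 10 its log2 fold change was -0.29 (SE 0.11, adjusted p = 0.061), so the label of that population is not checked by its transcript. A cut in the gene need not lower its RNA. The third gRNA 1 library of 22Rv1 held 16.6% mitochondrial counts against 0.515% to 2.10% in the line's other libraries, and the third gRNA 2 library of DU145 had a lowest correlation with its own replicates of 0.975. Where a gene of the 2 families gained or lost a call against the control without either library, that value is given beside it. Of the prostate luminal markers, KLK3 and KLK2 were detected in 22Rv1 controls and were at 0 in all 3 DU145 controls, and KLK3 was at 0 in PC3 controls.

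The promoter sequence of 2 genes is shown because they encode chains of the same trimer, the epithelial laminin, and their changes, given further on, were not alike. RefSeq promoter entries (GRCh38.p14) were present for 26 of the 38 genes. The motif TGANTCA, to which the AP-1 factors bind, was searched on both strands in the 250 bases before each start. It was found in 2 of the 33 entries of these genes, 1 of LAMB3 and 1 of LAMA3, and in 6.57% of 35114 promoters. The LAMB3 stretch lies on the minus strand at chr1:209651395-209651624, before the start at 209651374, which is inside the gene's GENCODE span, and capitals mark the motif, 67 bases before the start.
LAMB3: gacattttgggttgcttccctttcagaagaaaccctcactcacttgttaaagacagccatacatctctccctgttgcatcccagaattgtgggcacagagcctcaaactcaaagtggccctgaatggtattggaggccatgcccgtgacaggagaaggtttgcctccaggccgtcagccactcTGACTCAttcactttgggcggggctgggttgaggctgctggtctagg
LAMA3 holds the motif in 2 places on the plus strand, 125 and 69 bases before the entry's start, at chr18:23872886-23872910 and chr18:23872942-23872966. That start, at 23873020, is also inside the gene's GENCODE span.
LAMA3 at 125 bases: ggcacaggcTGACTCAtgtgtgaag
LAMA3 at 69 bases: ttcctcaccTGAGTCAggcaggccc
A match describes letters and no binding was measured. A motif of NF-kB, the factor downstream of NOD receptors and RIPK2, was found in 8 of the 33 entries and in 9.96% of all promoters. The 8 belong to 7 genes, and LAMB3 is one of them, with the motif in its 2 other entries, which overlap each other, and not in the stretch shown.

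Which integrin and laminin genes each line used was read from the control libraries. Per kilobase of merged exons (GENCODE 29), ITGB1 was the highest of these genes in 22Rv1 (51.0 CPM per kb), followed by LAMC1 (21.5), ITGB5 (19.1) and LAMB2 (14.3). In DU145 the order was ITGB1 (225 CPM per kb), ITGA3 (81.4), LAMB3 (48.7) and LAMB2 (46.3). In PC3 it was ITGA3 (202 CPM per kb), ITGB1 (162), LAMB2 (62.9) and ITGA6 (42.5). So the transcripts of both subunits of the alpha 3 beta 1 laminin receptor led in DU145 and PC3, while ITGA3 stood at 1.89 CPM per kb in 22Rv1. The receptor itself was not measured, and ITGB1 is shared with other alpha subunits.

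**Figure D1:**
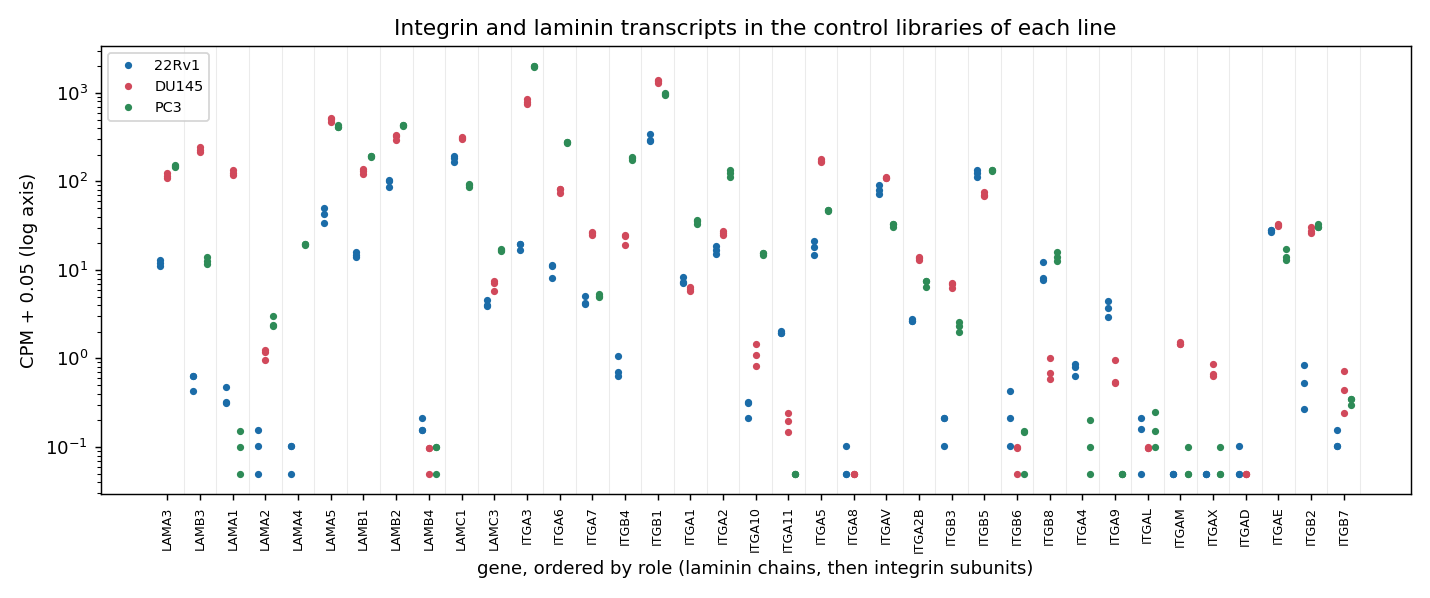
CPM plus 0.05 on a log axis for the genes shown, with a point for each of the 3 control libraries of 22Rv1, DU145 and PC3; genes are ordered by role and a gene without points is not listed in that line's table. 22Rv1 points lie lowest for LAMB3, ITGA3 and ITGB4, while ITGB1 is above 100 CPM in every control library.

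Over all 33 genes that could be compared, 22Rv1 controls were lower than DU145 controls for 26 and higher for 5 (75.9% of all 16322 genes were called in either direction, 37.9% lower). Against PC3, 22Rv1 was lower for 22 and higher for 6 (80.5% of all genes, 39.4% lower), and DU145 against PC3 gave 14 higher and 14 lower (75.9%). The median log2 difference of these genes was -2.45 for 22Rv1 against DU145 and -2.04 against PC3, beside 0.01 and 0.04 over all genes. The common scaling of all 27 libraries moves log2 differences with PC3 by 0.15 relative to the CPM of the separate lines. These tests, like all others below, are edgeR quasi-likelihood tests with Benjamini-Hochberg adjustment over all genes fitted.

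Each line had its own choice of laminin chains. LAMB3 was at 229 ± 14.1 CPM (SD, n = 3 here and below) in DU145, 12.7 ± 1.26 in PC3 and 0.518 ± 0.125 in 22Rv1, and each step in this order was larger than the spread (log2 differences 4.02 and 4.75, SE 0.12 and 0.19). LAMA3 reached 150 ± 4.22 CPM in PC3, 116 ± 7.40 in DU145 and 11.9 ± 0.949 in 22Rv1. Per kilobase, PC3 controls held more LAMA3 than LAMB3 (10.2 and 2.72 CPM per kb), and DU145 controls more LAMB3 than LAMA3 (48.7 and 7.93 CPM per kb).

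LAMA1, an alpha chain of embryonic basement membranes, was high in DU145 controls with 2791, 2488 and 2573 counts. It had 5 to 8 counts in 22Rv1 controls and 0 to 2 in PC3 controls. LAMA4, a chain of vessel and muscle laminins, had 392, 397 and 381 counts in PC3 controls and 0 or 1 in 22Rv1, and was not listed for DU145. Among integrins, ITGB4 fell in the order PC3 (182 ± 6.08 CPM), DU145 (22.7 ± 2.95) and 22Rv1 (0.750 ± 0.234), and ITGA6 in the same order (278 ± 4.76, 78.9 ± 4.95 and 10.1 ± 1.79). Some genes ran the other way. ITGA9, an alpha subunit that binds tenascin C, had 54 to 82 counts in 22Rv1 controls, 10 to 19 in DU145 and 0 in all 3 PC3 controls. ITGA11, a collagen receptor of fibroblasts, had 35 to 37 counts in 22Rv1, 2 to 4 in DU145 and 0 in PC3. ITGA7, which pairs with beta 1 as the laminin receptor of muscle, was highest in DU145 (25.8 ± 0.918 CPM) and did not differ beyond the spread between 22Rv1 and PC3 (4.39 ± 0.494 and 5.06 ± 0.178 CPM, adjusted p = 0.25).

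With RIPK2 guides, the family as a whole moved in no single direction. In 22Rv1 the filter on low counts left 28 of the 38 genes. Of these, 12 rose and 7 fell with gRNA 1 (48.5% of all genes were called, 25.6% higher and 22.9% lower), and 16 rose and 5 fell with gRNA 10 (40.6%, 20.0% higher and 20.6% lower). The 10 genes not tested there, among them ITGAD, ITGAL, ITGAM, ITGAX, ITGB2 and ITGB3, had at most 15 counts in a library. In DU145, 5 of 31 rose and 6 fell with gRNA 2 (34.0% called over all genes, 17.1% higher and 17.0% lower), and 13 rose and 6 fell with gRNA 10 (40.0%, 20.2% higher and 19.8% lower). Those listed but not tested, ITGA8, ITGAD, ITGAL, ITGB6 and LAMB4, had at most 4 counts, and ITGA4 and LAMA4 were not listed. In PC3, 13 of 27 rose and 3 fell with gRNA 2 (63.6%, 32.1% higher and 31.5% lower), and 12 rose and 11 fell with gRNA 10 (73.5%, 37.9% higher and 35.6% lower). Not tested there were ITGA4, ITGA9, ITGA11, ITGAL, ITGAM, ITGAX, ITGB6, LAMA1 and LAMB4, with at most 9 counts, and ITGA8 and ITGAD were not listed. Some genes of few counts passed the filter only through the libraries where they were high, and they are in these counts. Through guide libraries these were ITGA8, ITGA10, ITGB6, ITGB7 and LAMB4 in 22Rv1 and ITGA11 in DU145. A call of these against the control could only be higher, here and below. ITGA4 and ITGA11 in 22Rv1 passed through control libraries, so a call could only be lower. The 2 comparisons of a line share their control libraries. In bulk RNA, fewer cells of a type and less RNA per cell cannot be told apart.

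The median absolute log2 fold change of the genes tested was 0.90 with 22Rv1 gRNA 1 and 1.36 with gRNA 10, beside 0.40 and 0.35 over all genes. It was 0.46 and 0.64 in DU145 (0.29 and 0.32 over all genes) and 0.44 and 0.76 in PC3 (0.29 and 0.38). Knockout and control libraries did not overlap for 20 and 24 of the 28 genes tested in 22Rv1 (55.7% and 64.2% of all genes), 14 and 27 of 31 in DU145 (46.6% and 68.6%) and 22 and 24 of 27 in PC3 (67.6% and 74.8%). These shares, like the called ones, are high over all genes, so a call alone sets none of these genes apart. Leaving out the third gRNA 1 library of 22Rv1 changed the counts for that guide to 12 higher and 10 lower of 29, while calls over all genes went from 48.5% to 54.6%. Those for gRNA 10 became 17 higher and 6 lower (58.3% of all genes). Leaving out the third gRNA 2 library of DU145 raised the calls for that guide from 11 to 17 of 31 (9 higher, 8 lower), with 45.8% of all genes called, and those for gRNA 10 from 19 to 26, with 58.4% of all genes called.

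**Figure D2:**
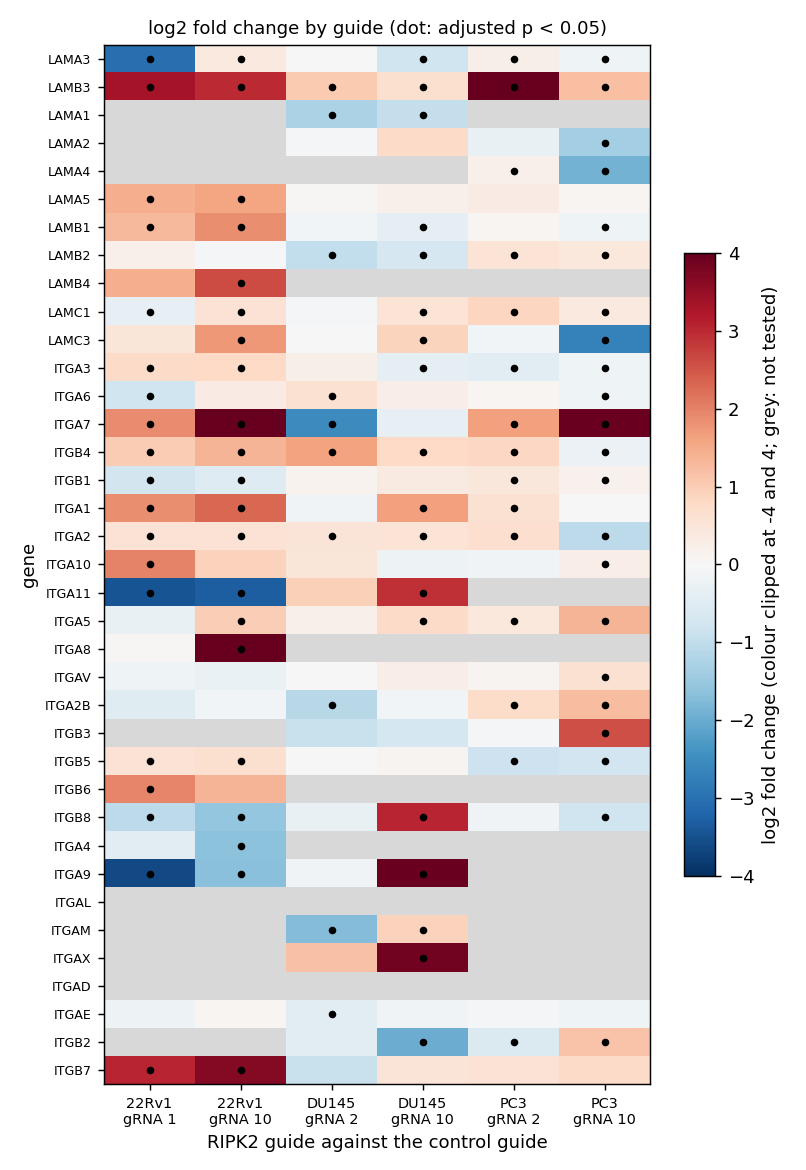
log2 fold change of each gene (rows, by role) with each RIPK2 guide against the control guide of the line (columns), red for higher and blue for lower, with a dot where the adjusted p was under 0.05 and grey where the gene was not tested or not listed. LAMB3 is red in all 6 columns, while LAMA3, ITGA7, ITGB8 and LAMC3 change colour between columns; ITGA8 and ITGB7 in 22Rv1 start from the counting floor, so their colour is a fitted value.

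Of the epithelial laminin, LAMB3 comes first. LAMB3 (chr1:209614870-209652466, minus strand) was known to rise in all 6 comparisons when the genes were chosen, so its values are a description. In 22Rv1 it had 7, 11 and 11 counts in the controls, 87, 99 and 99 with gRNA 1 and 83, 71 and 89 with gRNA 10, changes of 3.33 (SE 0.23) and 3.00 (SE 0.23) on the log2 scale. In DU145, where its control level was far higher, it went from 4735, 4486 and 4982 counts to 9486, 8246 and 10107 with gRNA 2 (log2 fold change 1.06, SE 0.12) and 6519, 7637 and 7232 with gRNA 10 (0.64, SE 0.12). In PC3 it went from 281, 254 and 232 to 4307, 4305 and 4216 with gRNA 2 (4.05, SE 0.06) and to 645, 573 and 616 with gRNA 10 (1.21, SE 0.07). In each line the knockout libraries lay above the controls, a direction that the choice of the gene already fixed. With gRNA 2 the PC3 cells reached 211 ± 2.18 CPM, beside 229 ± 14.1 in DU145 controls, each on the scale of its own line and not compared by a test.

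The rise of LAMB3 was not of one size. The 2 RIPK2 guides of PC3 differed by 2.84 (log2, SE 0.05, adjusted p = 3.9e-29), those of DU145 by 0.42 (SE 0.12, adjusted p = 0.018) and those of 22Rv1 by 0.34 (SE 0.18, adjusted p = 0.16). The DU145 difference lost its call without the first or the third gRNA 10 library and in a fit of the compared libraries alone. Averaged over both guides, the change was 2.31 larger on the log2 scale in 22Rv1 than in DU145 (SE 0.23, adjusted p = 1.0e-08) and 1.76 smaller in DU145 than in PC3 (log2 difference -1.76, SE 0.13, adjusted p = 5.5e-11). Between 22Rv1 and PC3 the difference was 0.55 (SE 0.26, adjusted p = 0.081). With gRNA 10 alone, the guide used in all 3 lines, 22Rv1 exceeded PC3 by 1.82 (SE 0.26, adjusted p = 2.5e-06) and DU145 was below PC3 (-0.54, SE 0.15, adjusted p = 0.0044). Markers of basal epithelium (KRT5, KRT14, KRT15, TP63) summed to 33.4 to 36.1 CPM in PC3 controls, 15.3 to 22.0 with gRNA 2 and 67.1 to 72.8 with gRNA 10, at most 0.535 CPM in any 22Rv1 library and at most 1.71 in any DU145 library. Their part in the result was not tested.

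LAMA3 (chr18:23689443-23956222, plus strand) did not follow its beta partner. In 22Rv1 it fell with gRNA 1, from 222, 205 and 241 counts to 33, 21 and 26, a log2 fold change of -3.01 (SE 0.17, adjusted p = 3.4e-07). With gRNA 10 it had 328, 304 and 278 counts, all above the controls, a rise of 0.39 (SE 0.14, adjusted p = 0.045) that was lost when any control or gRNA 10 library was left out. The gRNA 1 and gRNA 10 libraries were far apart (log2 difference -3.40, SE 0.17). In DU145 it fell with gRNA 10, from 2585, 2282 and 2369 to 1352, 1331 and 1305 counts (-0.81, SE 0.15, adjusted p = 0.0021). The DU145 gRNA 2 libraries had 2446, 2843 and 1502 and overlapped the controls (-0.03, SE 0.15, adjusted p = 0.91). In PC3 the changes were small, a rise of 0.23 with gRNA 2 (SE 0.06, adjusted p = 0.0018) and a fall of 0.17 on the log2 scale with gRNA 10 (SE 0.06, adjusted p = 0.012), the latter lost without the third gRNA 10 library (adjusted p = 0.056).

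**Figure D3:**
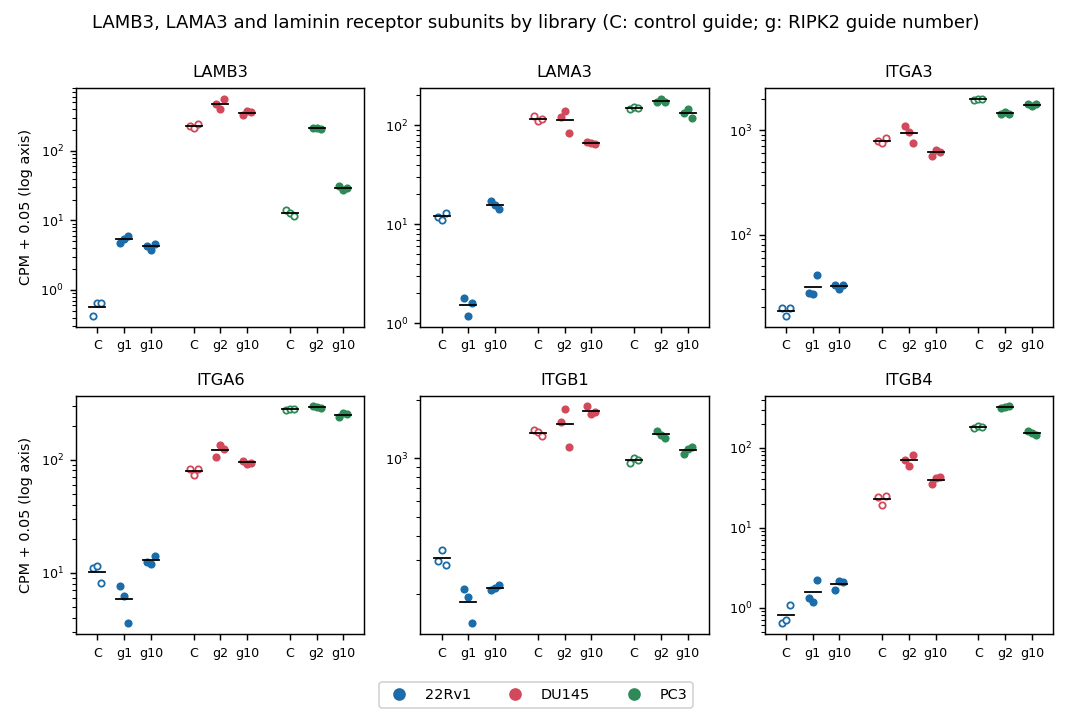
CPM plus 0.05 (log axis) of LAMB3, LAMA3 and 4 subunits of their receptors in each library, grouped by line (colour) and guide, with open points for control libraries and a bar for the mean of 3. LAMB3 lies above its controls with both guides in all 3 lines, while LAMA3 drops in 22Rv1 with gRNA 1 and in DU145 with gRNA 10.

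The epithelial laminin is bound by 2 integrins, whose subunits follow. ITGA3 (chr17:50055968-50090481, plus strand) rose in 22Rv1 from 366, 308 and 366 counts to 515, 494 and 682 with gRNA 1 (log2 fold change 0.76, SE 0.16, adjusted p = 0.0026) and to 641, 581 and 637 with gRNA 10 (0.78, SE 0.16, adjusted p = 0.0025). In PC3, where it was the leading integrin gene, it fell from 39235, 40155 and 40096 counts to 29364, 30566 and 29059 with gRNA 2 (-0.44, SE 0.03) and to 36654, 35934 and 37189 with gRNA 10 (-0.17, SE 0.03). DU145 had 16339, 15823 and 17403 counts in the controls, 22154, 19704 and 13566 with gRNA 2 and 11256, 13118 and 12500 with gRNA 10. The gRNA 2 libraries overlapped the controls (0.23, SE 0.13, adjusted p = 0.20), but without the third of them the log2 fold change was 0.37 (adjusted p = 0.0017). The fall with gRNA 10 (-0.37, SE 0.13, adjusted p = 0.043) was lost whenever 1 control or gRNA 10 library was left out. The average change in 22Rv1 was above that in DU145 by 0.84 (log2, SE 0.16) and above that in PC3 by 1.09 (SE 0.16).

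ITGB1 (chr10:32900319-33005792, minus strand), the beta subunit of alpha 3 beta 1, fell in 22Rv1. Counts went from 5563, 6303 and 5290 to 4017, 3581 and 2385 with gRNA 1 (log2 fold change -0.74, SE 0.14, adjusted p = 0.0014). With gRNA 10 they were 4058, 4159 and 4324 (-0.51, SE 0.14, adjusted p = 0.014), a call lost without the second control library or the first gRNA 10 library. In PC3 it rose from 18939, 20194 and 19696 to 28197, 26695 and 25809 with gRNA 2 (0.44, SE 0.04) and to 21755, 23138 and 23803 with gRNA 10 (0.18, SE 0.04). In 22Rv1, then, ITGA3 and ITGB1 moved in opposite directions, and in PC3 they did so the other way round. DU145 gave 0.14 (SE 0.14, adjusted p = 0.48) with gRNA 2 and 0.37 (SE 0.14, adjusted p = 0.062) with gRNA 10. Without the third gRNA 2 library both DU145 comparisons passed (0.31, adjusted p = 0.0034 and 0.37, adjusted p = 0.00024).

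ITGB4 (chr17:75721328-75757818, plus strand), the hemidesmosome's beta subunit, rose with both guides in DU145 and in 22Rv1 and changed in opposite directions in PC3. In DU145 it went from 499, 403 and 508 counts to 1406, 1225 and 1449 with gRNA 2 (log2 fold change 1.62, SE 0.14, adjusted p = 2.6e-05) and 695, 826 and 853 with gRNA 10 (0.80, SE 0.14, adjusted p = 0.0011). In PC3 it went from 3508, 3763 and 3678 to 6292, 6603 and 6621 with gRNA 2 (0.82, SE 0.04), and fell to 3356, 3202 and 3024 with gRNA 10 (-0.24, SE 0.04, adjusted p = 5.5e-06). In 22Rv1 the level was low, 11, 12 and 19 counts in the controls against 24, 21 and 36 with gRNA 1 (1.00, SE 0.33, adjusted p = 0.027) and 31, 41 and 40 with gRNA 10 (1.35, SE 0.32, adjusted p = 0.0062). The first of these was lost without the third gRNA 1 library (0.67, adjusted p = 0.082), without the first or second control library, and in a fit of the compared libraries alone. Within DU145 and within PC3, ITGB4 was higher with gRNA 2 than with gRNA 10 (0.82 and 1.06, SE 0.13 and 0.04). Epithelial markers (CDH1, EPCAM, KRT8, KRT18, KRT19) summed to 892 to 944 CPM in DU145 controls, 1634 to 3063 with gRNA 2 and 1539 to 1664 with gRNA 10, and their part in the result was not tested.

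ITGA6 (chr2:172427354-172506282, plus strand), the alpha partner of beta 4, rose in DU145 with gRNA 2, from 1701, 1527 and 1678 counts to 2129, 2740 and 2222 (log2 fold change 0.61, SE 0.10, adjusted p = 0.0010). With DU145 gRNA 10 it had 1934, 1831 and 1876, above all controls, but did not pass (0.26, SE 0.10, adjusted p = 0.056), and it passed without the third gRNA 2 library (0.25, adjusted p = 0.017). It fell in 22Rv1 with gRNA 1, from 205, 212 and 151 to 143, 115 and 59 (-0.81, SE 0.24, adjusted p = 0.018), a call lost without the first or second control library, and stood at 238, 232 and 271 with gRNA 10, above all controls (0.33, SE 0.23, adjusted p = 0.28). The gRNA 10 comparison passed without the third gRNA 1 library (0.34, adjusted p = 0.039). In PC3 it was 5459, 5616 and 5672 in controls, 5983, 5940 and 5760 with gRNA 2 (0.07, SE 0.04, adjusted p = 0.11) and fell to 4939, 5351 and 5209 with gRNA 10 (-0.16, SE 0.04, adjusted p = 0.00024).

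The fourth laminin receptor subunit, ITGA7 (chr12:55684568-55716043, minus strand), is the muscle laminin receptor's alpha chain. In 22Rv1 it had 93, 77 and 76 counts in the controls, 205, 209 and 450 with gRNA 1 and 6535, 6396 and 6400 with gRNA 10. These were rises of 3.70-fold (log2 1.89, SE 0.32, adjusted p = 0.00071) and 75.6-fold (6.24, SE 0.34, adjusted p = 2.4e-07), and with gRNA 10 the gene reached 52.2 CPM per kb, above the 35.9 of ITGB1 in the same libraries. In PC3 it rose from 99, 100 and 106 to 301, 322 and 343 with gRNA 2 (1.65, SE 0.09) and to 1627, 1650 and 1604 with gRNA 10 (3.95, SE 0.07, 15.5-fold). In DU145 it fell with gRNA 2, from 545, 516 and 542 to 116, 105 and 42 (-2.54, SE 0.24, adjusted p = 4.9e-05), and with gRNA 10 it had 389, 454 and 396 (-0.32, SE 0.21, adjusted p = 0.26), all below the controls. In each line the gRNA 10 libraries were above the libraries of the other guide, by 4.35, 2.22 and 2.30 on the log2 scale in 22Rv1, DU145 and PC3 (SE 0.30, 0.24 and 0.06). Without the third gRNA 1 library, the 22Rv1 change with that guide was 1.33 (SE 0.11), and the adjusted p of the DU145 gRNA 10 comparison was 0.0043 without the third gRNA 2 library. Fibroblast markers (COL1A1, COL3A1, DCN, LUM, PDGFRB) summed to 9.52 to 11.7 CPM in 22Rv1 controls, 14.9 to 32.5 with gRNA 1 and 26.8 to 28.5 with gRNA 10, and their part in the result was not tested.

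Among the remaining laminin chains, LAMA5 and LAMB1 rose in 22Rv1. LAMA5 rose in 22Rv1 from 800, 630 and 938 counts to 1323, 1449 and 3332 with gRNA 1 (log2 fold change 1.45, SE 0.33, adjusted p = 0.0048) and 2442, 2462 and 2456 with gRNA 10 (1.58, SE 0.33, adjusted p = 0.0033). The first value was set in part by 1 library, and it was 0.80 (SE 0.13, adjusted p = 0.00014) without the third gRNA 1 library. LAMB1, a widespread laminin beta chain, rose from 275, 293 and 261 to 655, 624 and 698 (1.31, SE 0.11) and 1021, 1027 and 1098 (1.87, SE 0.11), with all knockout libraries above the controls. In DU145 and PC3 no guide raised LAMA5 or LAMB1 past the test with all libraries in the fit (LAMA5 with DU145 gRNA 10 passed without the third gRNA 2 library, 0.21, adjusted p = 0.039), and LAMB1 fell with gRNA 10 in both (-0.35 and -0.16, SE 0.10 and 0.04), the DU145 call being lost in 5 of the fits without 1 library. With PC3 gRNA 2, though, all libraries lay above the controls for both genes. LAMA5 had 463 to 566 CPM against 407 to 439, and LAMB1 198 to 205 CPM against 189 to 196. The average change of LAMB1 in 22Rv1 exceeded those in DU145 and PC3 by 1.81 and 1.65 (SE 0.11 each, adjusted p = 1.1e-12 and 4.6e-12), and that of LAMA5 by 1.38 and 1.32 (SE 0.29 each, adjusted p = 0.00031 and 0.00050).

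LAMC1, the gamma chain of most laminins, changed in opposite directions in 22Rv1. Counts of 3626, 3411 and 3071 in the controls became 2705, 2730 and 2361 with gRNA 1 (log2 fold change -0.33, SE 0.09, adjusted p = 0.0098) and 5105, 5318 and 5105 with gRNA 10 (0.57, SE 0.09, adjusted p = 0.00040). It rose with gRNA 10 in DU145 (0.56, SE 0.09, adjusted p = 0.00096) and with both guides in PC3, from 1744, 1844 and 1867 to 3207, 3447 and 3324 (0.86, SE 0.04) and 2500, 2537 and 2292 (0.38, SE 0.04). LAMB2, the beta chain of muscle and kidney laminins, fell in DU145 from 6826, 6147 and 6789 counts to 4171, 3579 and 1727 with gRNA 2 (-0.9996, SE 0.22, adjusted p = 0.0058) and 3768, 4311 and 3948 with gRNA 10 (-0.66, SE 0.22, adjusted p = 0.031), the second call being lost whenever a control or gRNA 10 library was left out. In PC3 it rose instead, by 0.53 and 0.43 (SE 0.04 each). In 22Rv1 it did not pass with either guide (0.20 and -0.09), but the gRNA 1 value was -0.28 (adjusted p = 0.016) without the third gRNA 1 library.

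LAMA1, high in DU145 controls, fell with both guides there. The controls had 2791, 2488 and 2573 counts, gRNA 2 libraries 1115, 1410 and 611 (log2 fold change -1.26, SE 0.20, adjusted p = 0.0011) and gRNA 10 libraries 1336, 1198 and 1347 (-0.96, SE 0.20, adjusted p = 0.0032). Every knockout library was below every control. An antisense gene shares 10.3% of the exon bases of LAMA1, and how reads were assigned there is not given in the sources used here. LAMA4 had 0, 1 and 1 counts in 22Rv1 controls, 14, 14 and 6 with gRNA 1 and 4, 1 and 3 with gRNA 10, and was not tested there. Without the third gRNA 1 library it passed the filter and was called higher with gRNA 1. It passed only through its gRNA 1 counts, which fixed that direction, so the call is no support for a rise. LAMA4 is in the counts of that fit. It fell in PC3 with gRNA 10 from 392, 397 and 381 to 106, 114 and 108 (-1.88, SE 0.09, adjusted p = 4.6e-18) and rose by 0.21 with gRNA 2 (SE 0.07, adjusted p = 0.0079), a call lost by DESeq2 (adjusted p = 0.079) and without the second gRNA 2 library. LAMA2, the alpha chain of muscle laminin, also fell in PC3 with gRNA 10, from 59, 46 and 47 to 26, 12 and 23 (-1.36, SE 0.22). In DU145 it had 25, 19 and 23 counts in the controls and 42, 26 and 42 with gRNA 10 (0.77, SE 0.33, adjusted p = 0.092), and passed without the third gRNA 2 library (0.76, adjusted p = 0.019). LAMC3 fell in PC3 with gRNA 10 too, from 331, 327 and 346 to 52, 47 and 61 (-2.69, SE 0.10, adjusted p = 2.3e-20), but it rose with gRNA 10 in 22Rv1 (from 84, 72 and 74 to 281, 257 and 266; 1.75, SE 0.19) and in DU145 (0.88, SE 0.17). LAMB4 had 2 or 3 counts in 22Rv1 controls and 18, 10 and 18 with gRNA 10 (fitted log2 fold change 2.60). The gRNA 10 level was 4.92-fold a floor of 3 counts per library.

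**Figure D4:**
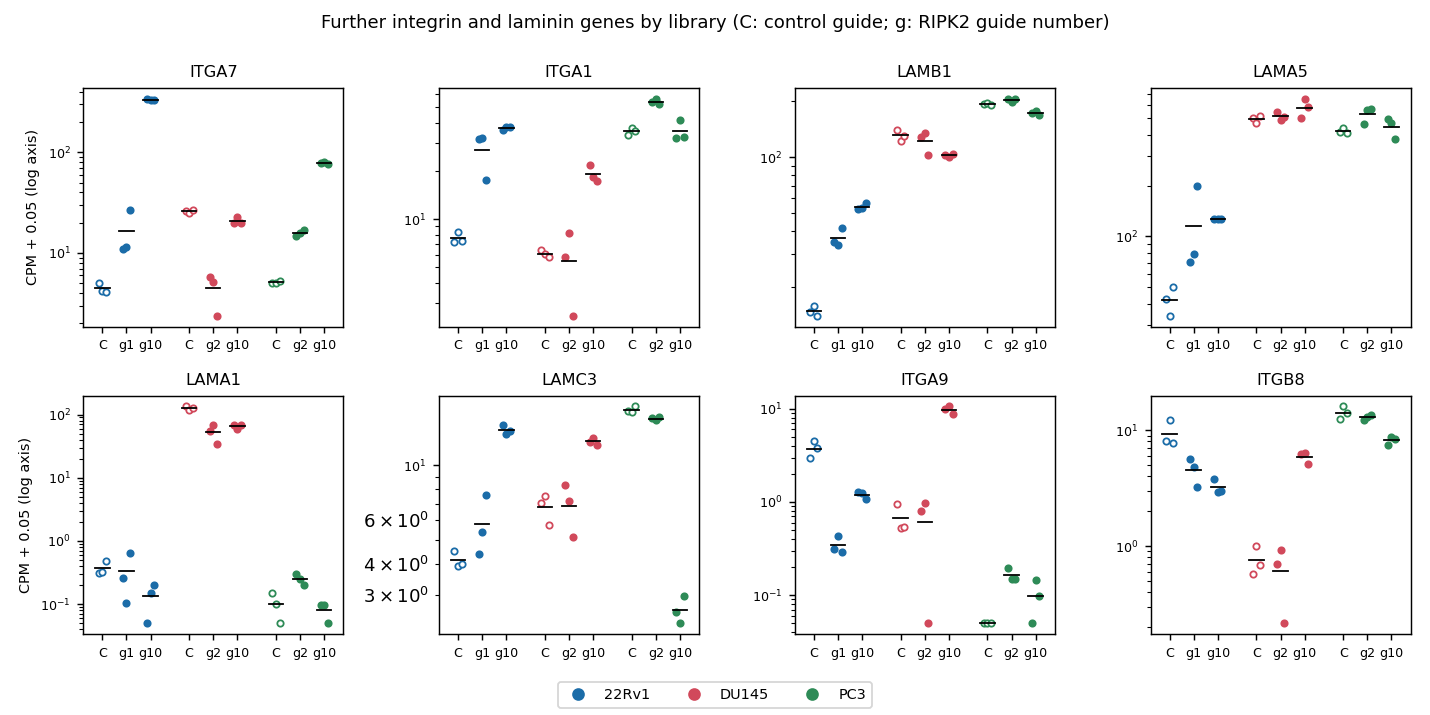
CPM plus 0.05 (log axis) in each library for ITGA7, ITGA1, LAMB1, LAMA5, LAMA1, LAMC3, ITGA9 and ITGB8, by line (colour) and guide, open for control libraries, with a bar for the mean of 3. ITGA7 spans from 2.32 CPM in a DU145 gRNA 2 library to 338 CPM in a 22Rv1 gRNA 10 library, and LAMA1 is seen only in DU145 above the lowest levels.

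Among the collagen receptors, all of which pair with beta 1, ITGA2 rose in 22Rv1 with both guides (log2 fold change 0.58 each, SE 0.12 each) and in DU145 with both (0.50 and 0.54, SE 0.13 each), the DU145 gRNA 2 call being lost without the third control library (adjusted p = 0.053). In PC3 it rose with gRNA 2, from 2257, 2722 and 2487 counts to 3935, 4432 and 3694 (0.68, SE 0.08, adjusted p = 6.4e-05), and fell with gRNA 10 to 1199, 1339 and 1204 (-1.04, SE 0.09, adjusted p = 3.5e-06). The 3 PC3 groups did not overlap. ITGA1 rose in 22Rv1 from 133, 153 and 136 to 592, 595 and 294 with gRNA 1 (1.84, SE 0.21) and 692, 728 and 730 with gRNA 10 (2.29, SE 0.21). It also rose with gRNA 10 in DU145 (133, 125 and 117 to 428, 367 and 343; 1.66, SE 0.30) and with gRNA 2 in PC3 (0.62, SE 0.08). ITGA11 fell in 22Rv1, from 37, 35 and 35 counts to 2, 2 and 5 with gRNA 1 (-3.46, SE 0.44; -4.08 without the third of these) and 6, 4 and 1 with gRNA 10 (-3.29, SE 0.42), and rose in DU145 with gRNA 10, from 2, 4 and 3 to 22, 24 and 22 (2.92, SE 0.43). ITGA10 rose with 22Rv1 gRNA 1 (5, 5 and 3 to 12, 14 and 24 counts) and with PC3 gRNA 10 (0.26, SE 0.08).

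Of the subunits that bind the RGD sequence of fibronectin and vitronectin, ITGA5, the fibronectin receptor, rose with gRNA 10 in all 3 lines (log2 fold change 0.97, 0.75 and 1.36 in 22Rv1, DU145 and PC3, SE 0.22, 0.08 and 0.04). In PC3 counts went from 946, 924 and 968 to 2554, 2392 and 2572, and to 1278, 1272 and 1298 with gRNA 2 (0.43, SE 0.05). In 22Rv1 the controls had 339, 276 and 391 counts and the gRNA 1 libraries 220, 205 and 363 (-0.28, SE 0.23, adjusted p = 0.32), and without the third gRNA 1 library this was a fall (-0.67, SE 0.14, adjusted p = 0.0010). With DU145 gRNA 2 the value was 0.20 (SE 0.08, adjusted p = 0.078), and 0.24 (adjusted p = 0.012) without the third gRNA 2 library. ITGB5 rose in 22Rv1 (0.57 and 0.63, SE 0.10 each) and fell in PC3, from 2658, 2671 and 2679 to 1527, 1523 and 1548 with gRNA 2 (-0.81, SE 0.04) and 1543, 1582 and 1756 with gRNA 10 (-0.76, SE 0.04). Its average change differed between 22Rv1 and PC3 by 1.40 (SE 0.09, adjusted p = 4.6e-12). ITGAV, the common partner of these beta subunits, passed with PC3 gRNA 10 (0.62, SE 0.05), and it also passed with gRNA 10 in 22Rv1 (-0.26, adjusted p = 0.018) and DU145 (0.26, adjusted p = 0.017) when the library that stood apart was left out.

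ITGB3, the beta subunit of the vitronectin receptor, rose in PC3 with gRNA 10 from 39, 51 and 46 counts to 257, 283 and 309 (log2 fold change 2.59, SE 0.12, adjusted p = 4.6e-18) and was at 51, 39 and 43 with gRNA 2. In DU145 every knockout library was below every control, with 146, 142 and 128 counts in the controls, 98, 102 and 16 with gRNA 2 and 75, 99 and 73 with gRNA 10. These differences did not pass (-0.89 and -0.70, SE 0.42 and 0.41, adjusted p = 0.12 and 0.20), but both did without the third gRNA 2 library (-0.44 and -0.70, adjusted p = 0.022 and 0.00043). A neighbouring gene on the same strand shares 51.6% of its exon bases, so its counts are uncertain. Endothelial markers (CDH5, KDR, PECAM1, VWF) summed to 2.98 to 3.63 CPM in PC3 controls, 21.3 to 23.3 with gRNA 2 and 47.4 to 53.0 with gRNA 10, and their part in the result was not tested. ITGA2B, the platelet alpha IIb subunit, rose with both guides in PC3 (148, 128 and 149 counts to 230, 210 and 275, and 368, 350 and 318; 0.74 and 1.24, SE 0.11 and 0.10). It fell in DU145 with gRNA 2 (284, 272 and 288 to 153, 164 and 54; -1.12, SE 0.27). In 22Rv1 it had 49, 51 and 49 counts in the controls and 21, 21 and 60 with gRNA 1 (-0.47, SE 0.38, adjusted p = 0.33), a fall without the third gRNA 1 library (-1.24, SE 0.21, adjusted p = 0.00022). The platelet marker GP1BA, the one of 3 that was listed, was at 0 in all PC3 controls and at most 0.0967 CPM in a PC3 knockout library.

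ITGB8, which with alpha V activates TGF-beta, fell in 22Rv1 with both guides (log2 fold change -1.03 and -1.54, SE 0.24 each) and in PC3 with gRNA 10 (-0.79, SE 0.09). In DU145 it rose with gRNA 10 from 11, 20 and 13 counts to 122, 126 and 102 (3.04, SE 0.34, adjusted p = 8.3e-05), while gRNA 2 libraries had 13, 18 and 3. ITGA8, a subunit of mesenchymal cells, was at 1, 0 and 0 counts in 22Rv1 controls and 0, 0 and 1 with gRNA 1. With gRNA 10 it had 254, 239 and 261, which was 80.7-fold a floor of 3 counts per library. In DU145 it did not exceed 1 count. ITGB6, the epithelial partner of alpha V, rose with 22Rv1 gRNA 1 (7, 3 and 1 to 12, 10 and 20 counts, adjusted p = 0.020), a call lost without the second or the third control library (up to an adjusted p of 0.076), and its exons overlap those of another gene over 20.6% of their bases.

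ITGA4 and ITGA9, whose products bind fibronectin's alternative domains, VCAM1 and tenascin C, form the next class. ITGA9 fell in 22Rv1 from 54, 82 and 69 counts to 5, 7 and 4 with gRNA 1 (log2 fold change -3.60, SE 0.29, adjusted p = 3.9e-06) and 24, 23 and 20 with gRNA 10 (-1.66, SE 0.23, adjusted p = 0.00022). In DU145 it rose with gRNA 10, from 19, 10 and 10 to 197, 211 and 176 (3.95, SE 0.47, adjusted p = 0.00011), and gRNA 2 libraries had 15, 19 and 0. The average change differed between these lines by -4.54 (SE 0.50, adjusted p = 9.2e-08). ITGA4 fell in 22Rv1 with gRNA 10, from 11, 15 and 14 to 5, 6 and 2 (-1.65, SE 0.41).

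The leukocyte integrins were scarce, yet DU145 and PC3 expressed some. ITGB2, the beta subunit of LFA-1 and Mac-1, had 573, 550 and 629 counts in DU145 controls and fell with gRNA 10 to 123, 161 and 142 (log2 fold change -1.99, SE 0.23, adjusted p = 9.8e-05). In PC3 it fell with gRNA 2 from 608, 615 and 670 to 406, 438 and 441 (-0.57, SE 0.06) and rose with gRNA 10 to 1447, 1362 and 1538 (1.15, SE 0.05), so that the 3 groups did not overlap. Of its alpha partners in DU145, ITGAX rose with gRNA 10 from 17, 13 and 12 to 196, 210 and 184 (3.85, SE 0.39, adjusted p = 4.2e-05), and had 41, 42 and 8 with gRNA 2 (1.17, SE 0.45, adjusted p = 0.067), a rise without the third of these (1.59, adjusted p = 9.2e-05). ITGAM went with gRNA 10 from 31, 29 and 29 to 59, 46 and 58 (0.92, SE 0.26, adjusted p = 0.016, lost in 4 of the fits without 1 library). With gRNA 2, ITGAM fell to 12, 10 and 3 (-1.74, SE 0.34, adjusted p = 0.0032). ITGAE, the partner of beta 7 on intraepithelial lymphocytes, had over 250 counts in every library and fell with DU145 gRNA 2 (-0.46, SE 0.08, adjusted p = 0.0019). ITGB7 rose in 22Rv1 from 2, 1 and 1 counts to 6, 7 and 21 with gRNA 1 and to 18, 22 and 17 with gRNA 10. The gRNA 10 level was 6.10-fold a floor of 3 counts per library. The size of the gRNA 1 rise rests on the third gRNA 1 library, since the fitted log2 value was 3.04 with it and 2.18 without it (adjusted p = 0.0054 and 0.0082). In DU145 it had 4, 14 and 8 counts in the controls and 2, 3 and 8 with gRNA 2 (adjusted p = 0.28, and 0.049 without the third gRNA 2 library). Of its exon bases, 42.1% overlap a gene on the other strand. Leukocyte markers (CD14, CD3E, CD79A, CORO1A, LYZ, PTPRC) summed to 13.6 to 15.8 CPM in DU145 controls, 7.80 to 14.3 with gRNA 2 and 11.7 to 12.9 with gRNA 10, and to 5.59 to 6.37, 9.16 to 10.3 and 9.004 to 9.57 in PC3. Their part in the result was not tested. ITGAL and ITGAD did not exceed 6 counts in any library.

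The 2 RIPK2 guides of a line were then compared directly. In 22Rv1, 9 of 28 genes were lower with gRNA 1 than with gRNA 10 and the other genes did not pass (35.6% of all genes differed, 16.8% lower). Those 9 were ITGA8, ITGA7, LAMA3, ITGA9, LAMC3, ITGA5, ITGA6, LAMC1 and LAMB1. For ITGA8 the direction was fixed, since it passed the filter only through the gRNA 10 libraries. Without the third gRNA 1 library, 19 of 29 differed, 16 lower and 3 higher (45.1% of all genes). In DU145, 7 of 31 were higher with gRNA 2 and 12 lower (38.8% of all genes, 19.2% higher and 19.6% lower), and in PC3, 14 of 27 were higher with gRNA 2 and 9 lower (73.4%, 36.5% higher and 36.9% lower). LAMB3, LAMA3, ITGB4 and ITGA6 were higher with gRNA 2 in both DU145 and PC3, whereas ITGA5 and ITGA7 were lower in both. ITGA3 was higher with gRNA 2 in DU145 (0.61, SE 0.13) and lower in PC3 (-0.27, SE 0.03). The DU145 populations also differed in RIPK2 transcript (log2 difference -1.56, SE 0.12).

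**Figure D5:**
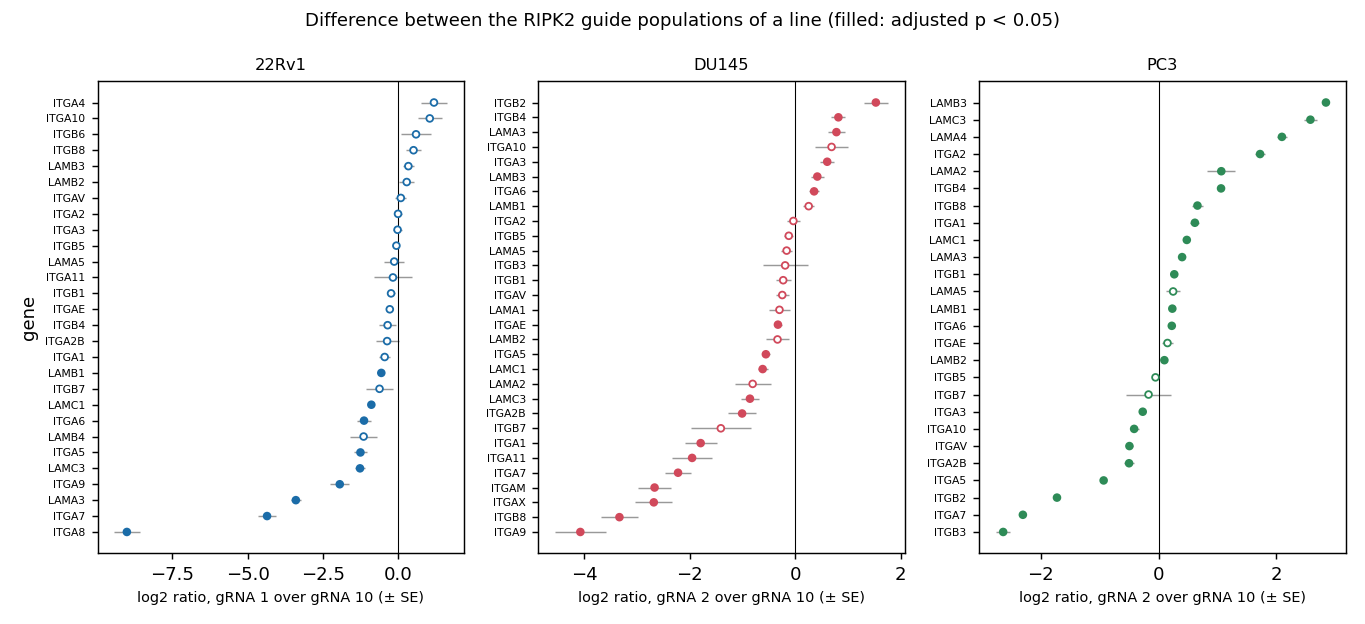
log2 ratio of the other RIPK2 guide over gRNA 10 for tested genes in 22Rv1, DU145 and PC3, sorted within a line, with bars for 1 SE and filled points where the adjusted p was under 0.05. In 22Rv1 all 9 filled points lie on the gRNA 10 side, whereas in DU145 and PC3 they lie on both; ITGA8 was at 0 or 1 count with gRNA 1, so its position is a fitted value and no measured ratio.

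The averaged change also differed between lines for 17 of 33 genes between 22Rv1 and DU145 (47.1% of all genes), 20 between 22Rv1 and PC3 (45.3%) and 15 between DU145 and PC3 (42.2%). The first RIPK2 guide differed between 22Rv1 and the other lines, so these differences hold guide and line together.

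The partners of these genes were read from 6 lists, and the shares of all genes called stand beside each count. Counts for the hemidesmosome and basement membrane partners, the other laminin receptors and the proteases are given for some lines only. For the hemidesmosome partners in 22Rv1 the count is given for gRNA 1 and not for gRNA 10. Of the hemidesmosome partners (COL17A1, plakins and others, 7 genes), 1 of 5 tested rose and 3 fell in PC3 with gRNA 2 (63.6% of all genes were called), and 2 rose and 2 fell with gRNA 10 (73.5% of all genes). ERBIN, an adaptor that binds integrin beta 4, rose in PC3 from 701, 770 and 789 counts to 1290, 1216 and 1125 and to 1211, 1221 and 1206 (log2 fold change 0.67 and 0.64, SE 0.05 each), and DST, which encodes the BPAG1 plakin, fell there (-0.52 and -0.67, SE 0.08 each). In 22Rv1, 3 of 4 tested rose and 1 fell with gRNA 1 (48.5% of all genes were called), with PLEC, the plectin linker to keratin, at 0.82 and 0.60 (SE 0.17 each) for the 2 guides. The gRNA 10 call for PLEC was lost without the second control library (adjusted p = 0.066).

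Of 13 basement membrane partners, 10 of 11 tested rose in PC3 with gRNA 2 and 1 fell (32.1% of all genes rose and 31.5% fell), but 3 rose and 8 fell with gRNA 10 (37.9% and 35.6% of all genes). COL7A1, the anchoring fibril collagen that binds the epithelial laminin, rose with both, from 156, 171 and 156 counts to 367, 446 and 410 and to 521, 521 and 517 (1.33 and 1.64, SE 0.08 each). In 22Rv1, FRAS1, a basement membrane protein of the Fraser complex, fell from 11899, 9731 and 8833 counts to 904, 1032 and 710 and to 1736, 1763 and 1648 (-3.48 and -2.62, SE 0.14 each), while its complex partner FREM2 rose (1.91 and 1.61, SE 0.13 each). FRAS1 rose in DU145 with both guides (0.94 and 0.89, SE 0.16 each).

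Of 6 laminin receptors outside the integrin family, 2 rose and 3 fell in 22Rv1 with gRNA 1 (48.5% of all genes were called), and 3 rose and 2 fell with gRNA 10 (40.6% of all genes). BCAM, a receptor of the LAMA5 chain, went there from 186, 140 and 202 counts to 221, 231 and 485 with gRNA 1 (0.90, SE 0.30, adjusted p = 0.029) and 2827, 2735 and 2731 with gRNA 10 (3.92, SE 0.31). The gRNA 1 call for BCAM was lost without the first or the second control library, and its log2 fold change ran down to 0.35 with 1 library left out. MCAM, a receptor of LAMA4 laminins, rose with both guides (1.64 and 2.03, SE 0.25 each), and RPSA, the ribosomal protein also known as the laminin receptor, fell (-0.99 and -0.83, SE 0.17 and 0.16).

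Of 20 other integrin ligands, 7 of 18 tested rose and 4 fell in 22Rv1 with gRNA 1, 5 of 18 rose and 5 fell in DU145 with gRNA 2, and 9 of 16 rose and 6 fell in PC3 with gRNA 2. Over all genes, 48.5%, 34.0% and 63.6% were called in these comparisons. With gRNA 10 the counts were 7 and 3, 6 and 3, and 7 and 9, beside 40.6%, 40.0% and 73.5% of all genes called. TNC, tenascin C, rose in DU145 from 48, 49 and 50 counts to 1416, 1647 and 1442 with gRNA 2 (5.02, SE 0.11) and 193, 211 and 213 with gRNA 10 (2.12, SE 0.11). It rose in 22Rv1 with both guides (2.35 and 2.46, SE 0.15 each), and in PC3 it rose with gRNA 2 and fell with gRNA 10 (1.69 and -1.98, SE 0.06 and 0.08). CCN2, a matricellular ligand, rose in 22Rv1 from 19, 12 and 16 to 485, 449 and 414 and to 84, 70 and 85 (4.88 and 2.28, SE 0.17 and 0.18).

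The 24 integrin adaptors and kinases were split. With the first guide, 9 rose and 7 fell in 22Rv1, 5 and 4 in DU145 and 10 and 9 in PC3, beside 48.5%, 34.0% and 63.6% of all genes called. With gRNA 10 it was 7 and 5, 3 and 9, and 12 and 9, beside 40.6%, 40.0% and 73.5%. The DU145 count with gRNA 2 is near the share over all genes. In 22Rv1, TLN2, which links integrins to actin, rose by 2.73 and 1.83 (SE 0.25 each) and TNS3, a tensin, by 1.41 and 2.57 (SE 0.12 each); TLN2 fell in DU145 (-0.85 and -0.74, SE 0.17 each). Of 8 laminin processing proteases, 5 were tested in 22Rv1, where 2 rose and 2 fell with gRNA 1 (48.5% of all genes were called) and 2 rose and 3 fell with gRNA 10 (40.6% of all genes). MMP14, a membrane protease that cleaves laminins, fell there from 371, 310 and 403 counts to 47, 60 and 93 and to 27, 26 and 27 (-2.37 and -3.81, SE 0.24 and 0.27). HPN, hepsin, a protease that cleaves the epithelial laminin, fell as well (-1.01 and -0.97, SE 0.21 each), and BMP1, which processes laminin chains, rose (0.69 and 0.82, SE 0.20 each). The gRNA 1 call for BMP1 was lost without the second control library (adjusted p = 0.065).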

How the data were processed

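The deposited values are unnormalised counts of reads per gene symbol, whole numbers in 1 table for each line, per the file headers. The submitters' processing notes name FastQC, STAR, edgeR and hg38, without roles or versions. The annotation, the counter and its strand setting are not given in the sources used here. Groups came from the sample titles.

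For each line the 9 libraries were fitted together with edgeR 4.0.16 in R 4.3.3 (filterByExpr with a minimum count of 10 and total of 15, TMM, robust quasi-likelihood F test, two-sided, group as the only term), and all 27 in one model for comparisons between lines. A gene counts as changed at a Benjamini-Hochberg adjusted p under 0.05 over all genes fitted. SE was derived from F. A floor of 3 counts was used where no library of a group exceeded 3 counts. For a count of 0 it covers counting error only, and for counts above 0 it is no upper limit. Alternatives were RLE factors, DESeq2 1.42.0, no filter, a replicate block, the compared libraries alone and each library left out. The script was tested on simulated data.

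The genes, lists and tests were chosen with earlier results of these data known. Values are given per library for LAMB3, LAMA3, their receptors and RIPK2. Also named are up to 4 genes per line with the largest smaller change called one way with both guides (group mean of at least 100 counts, no overlap), up to 2 called in opposite directions, and up to 3 per partner list. Other genes among the 38 were named after their values were seen. One gene enters the counts and is not reported here.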

Additional observations from a re-analysis of the deposited data

Results flagged for a closer look

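The changes of 6 genes (chains and receptors of the epithelial laminin) differed between lines by a test of the difference itself, on the average of both guides (log2, edgeR quasi-likelihood test, adjusted over all genes). Between 22Rv1 and DU145, the change in 22Rv1 was above that in DU145 for LAMB3 (2.31) and ITGA3 (0.84), and below it for LAMA3 (-0.89), ITGB1 (-0.88) and ITGA6 (-0.67). Between 22Rv1 and PC3 the differences were 1.09 for ITGA3, 0.90 for ITGB4, -0.92 for ITGB1 and -1.32 for LAMA3. Between DU145 and PC3 they were 0.94 for ITGB4, 0.50 for ITGA6, -0.43 for LAMA3 and -1.76 for LAMB3. Over all genes, 47.1% were called between 22Rv1 and DU145, 45.3% between 22Rv1 and PC3 and 42.2% between DU145 and PC3. So a call alone sets none of these genes apart.

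The guides averaged were not the same in all lines. With gRNA 10 alone, LAMA3 turned direction in both comparisons with 22Rv1, to 1.21 against DU145 (SE 0.18, adjusted p = 6.7e-06) and to 0.60 against PC3 (SE 0.18, adjusted p = 0.0084). The ITGA6 difference between 22Rv1 and DU145 was then 0.08 (SE 0.20, adjusted p = 0.77). The ITGA3 and ITGB1 differences kept their direction in both comparisons with 22Rv1 (1.16 and 0.99 for ITGA3, -0.87 and -0.65 for ITGB1).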

How the results depend on the processing

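Settings were compared for LAMB3, LAMA3, their receptors and the genes picked by size of change in each line. These gave the same direction and side of the threshold in 1337 of the values under other settings. They lost a call in 46, gained one in 23 and turned direction in 22. None of those 22 had passed the test with all libraries. Other genes named in the text are not in these counts, and some of them turned too. Without the third gRNA 2 library of DU145, the log2 fold change of ITGA9 with that guide went from -0.13 to 0.41. That of ITGB8 went from -0.30 to 0.11 and that of LAMA2 from -0.041 to 0.25. ITGA1 with PC3 gRNA 10 (0.0017 on the log2 scale) became -0.00229 with RLE factors, -0.00321 by DESeq2, -0.00551 with no filter, -0.00135 with a replicate block and -0.00600 with only the compared libraries, and ran from -0.13 to 0.066 with 1 library left out. ITGB5 with DU145 gRNA 2 (-0.010) became 0.011 with no filter and 0.0056 with only the compared libraries, and ran from -0.063 to 0.032 with 1 library left out. For the same comparison, ranges with 1 library left out were -0.18 to 0.16 for LAMA3, -0.011 to 0.31 for ITGB1, -0.54 to 0.21 for ITGA1, -0.17 to 0.016 for LAMB1 and -0.15 to 0.020 for LAMC1. LAMB2 with 22Rv1 gRNA 1 ran from -0.28 to 0.39. The cause was not tested.

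With 1 library left out, genes changed with DU145 gRNA 2 numbered 10 to 17 (11 with all), and those differing between the 22Rv1 guides 9 to 19 (9 with all). The lists of partners gave 24 to 43 changed genes with DU145 gRNA 2 (27 with all) and 27 to 50 with gRNA 10 (33 with all). Replicate numbers in the titles are shared between groups, but in some groups they differ from the numbers in the library names. By title number, no pairing of the libraries was seen (same-number correlations from -0.19 to 0.34, over 0.1 in 1 of 9 pairs in 22Rv1). The replicate block used the same title numbers. Neither can exclude a pairing by the library names. With the replicate block, 19 and 20 genes changed in 22Rv1, 11 and 18 in DU145, 17 and 24 in PC3, and 10, 19 and 23 differed between guides. Depth limits genes of a few counts, where only large changes could be detected.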
